A study of Mus musculus with 4 samples.

Results

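A group of 9 genes for receptors that guide the movement of leukocytes were examined in RNA sequencing of cultured mouse macrophages: Ccr1, Ccr2, Cx3cr1, Cxcr4, Ccrl2, Ackr3, Cmklr1, Fpr1 and Fpr2. They were taken from the deposited gene table by symbol, which gave 9 of its 34745 genes, and each had a count in at least 1 library. The table held 4 libraries. The 2 labelled WT came, per the study's text, from G3bp1f/f mice, whose G3bp1 gene is floxed. The 2 labelled KO (genotype G3bp1mac-/-) came from G3bp1f/f mice crossed to Lyz2-Cre, so both groups carried the floxed alleles, and the Cre is driven by the Lyz2 promoter, which is active across the myeloid lineage. The labels name the cells only as macrophages grown in DMEM with serum and antibiotics, the study's text calls them bone marrow-derived macrophages (BMDMs), and no stimulus is given for them. The age of the mice used for these libraries and how many mice a library came from are not given in the sources used here, so p-values measure the spread between these libraries, which may be technical.

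Chemokine and chemoattractant receptors are G protein-coupled receptors of the cell surface. Ligand binding releases inhibitory G proteins and leads to directed movement, and a few atypical members bind ligand without that signal and act as scavengers or presenters. On monocytes and macrophages, CCR2 and CX3CR1 are used as markers of monocyte states, CXCR4 retains cells in the bone marrow, and the formyl peptide receptors sense bacterial and mitochondrial peptides.

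No receptor gene was called different between KO and WT. Ccr1 was lower in both KO libraries than in both WT libraries, at a mean of 103 against 171 CPM, and Cx3cr1 was higher, at 1.36 against 0.559 CPM. Neither passed the adjusted threshold in the fit with genotype alone. With the replicate number as a block, Ccr1 had an edgeR adjusted p of 0.0238 but stayed below the 2-fold minimum. A larger difference ran between the libraries numbered 1 and 2, in the same direction in both genotypes. Fpr1 and Fpr2 had between 0 and 4 counts in the libraries numbered 1 and between 267 and 393 counts in those numbered 2, Ccrl2 and Cmklr1 were higher in number 2, and Cxcr4 and Ccr2 were lower. The labels do not say what the number stands for.

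The libraries held 16724241 to 19747909 counts and 15468 to 16031 genes with a count, and mitochondrial genes took 2.40% to 2.67% of the counts. Levels are given as CPM, in which counts are put on 1 scale by TMM (trimmed mean of M values), and 3 counts, the level that a count of 0 still allows, corresponded to between 0.152 and 0.188 CPM, counting error only. For the targeted gene G3bp1, 1691 and 2875 fragments were counted in WT against 1307 and 2296 in KO. KO lay below WT within each number, yet the KO library numbered 2 was above the WT library numbered 1 (117 against 104 CPM), so the groups overlapped (log2 fold change -0.61, SE 0.40, edgeR quasi-likelihood adjusted p 0.904). Counts per gene do not show whether the floxed exons were covered, so this value does not settle the deletion. The study measured G3bp1 mRNA and G3BP1 protein separately in BMDMs of both genotypes, and it reports efficient loss from the macrophages. Macrophage markers summed to 22117 to 27932 CPM, and all 14 of their rows in the table were tested. Lyz2 alone had 16869 to 21870 CPM, so the sum says little about the other markers. Itgam has rows of opposite direction, with log2 fold changes of 0.82 and -1.11. Neutrophil markers summed to 86.5 to 159 CPM, with 14 of 16 detected and Mpo and Elane at 0. Of the 9 tested, 3 were lower and 1 was higher in KO without overlap (16.9% and 20% of all tested genes). From WT to KO, the lower ones were S100a9 (5.61 and 5.15 against 0.107 and 0.0508 CPM), Retnlg (6.10 and 4.46 against 0.161 and 0.457 CPM) and S100a8 (14.5 and 15.2 against 7.14 and 10.6 CPM). Mmp8 was the higher one (11.6 and 12.1 against 13.1 and 13.2 CPM), and the groups overlapped for the rest. The sum of B cell markers was lower in KO (12.0 and 11.4 CPM) than in WT (22.1 and 23.2 CPM). T and NK cell markers reached at most 2.77 CPM.

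The sequences upstream of Fpr1, Fpr2 and Cxcr4 are shown because Fpr1 and Fpr2 had the same pattern over the libraries and Cxcr4 the opposite. Each is the 250 bases before the start of the RefSeq gene on GRCm38.p6, 5′ to 3′ on the strand of the gene, and capitals mark the letters of the motifs found. Fpr1 (chr17:17883940-17884189, minus strand), Fpr2 (chr17:17887574-17887823, plus strand) and Cxcr4 (chr1:128592300-128592549, minus strand) read as follows.
Fpr1: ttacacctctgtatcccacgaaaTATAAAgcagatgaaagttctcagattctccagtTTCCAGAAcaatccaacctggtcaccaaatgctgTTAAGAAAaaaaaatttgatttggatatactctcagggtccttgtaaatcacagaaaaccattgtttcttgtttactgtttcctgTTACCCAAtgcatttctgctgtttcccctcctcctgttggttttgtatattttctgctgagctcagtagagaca
Fpr2: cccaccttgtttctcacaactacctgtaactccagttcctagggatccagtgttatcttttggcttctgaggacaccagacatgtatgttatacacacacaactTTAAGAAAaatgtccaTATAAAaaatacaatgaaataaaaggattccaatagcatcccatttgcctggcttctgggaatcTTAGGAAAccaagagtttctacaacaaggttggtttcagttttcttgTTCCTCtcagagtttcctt
Cxcr4: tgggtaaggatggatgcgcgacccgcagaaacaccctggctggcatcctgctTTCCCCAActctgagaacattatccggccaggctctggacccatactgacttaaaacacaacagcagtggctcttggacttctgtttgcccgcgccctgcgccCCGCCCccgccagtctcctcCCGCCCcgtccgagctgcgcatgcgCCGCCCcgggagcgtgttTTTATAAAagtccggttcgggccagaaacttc

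The motifs were searched on both strands as fixed letters. The TATA box was searched as TATAAA, and the core of sites for the myeloid factor PU.1 as GAGGAA. For C/EBP factors the letters were TTNCNNAA, for NF-kB they were GGNNTTTCC, and for AP-1, a factor induced by many stimuli, TGACTCA. The interferon-stimulated response element was searched as GAAANNGAA, and the GC box bound by SP factors as GGGCGG. Upstream of Fpr1 there were TATA letters at position -227 and C/EBP letters at -193, -159 and -74, counted from the start of the gene to the first base of the match. Upstream of Fpr2, TATA letters stood at -130, C/EBP letters at -146 and -66, and the PU.1 core at -19. Of 32851 such windows of the genome, 12.4% held the TATA letters, 36.8% the C/EBP letters and 23.3% the PU.1 core. The Cxcr4 window held TATA letters at -30 on the strand of the gene and, overlapping them on the opposite strand, at -32. It also held C/EBP letters at -198 and GC boxes at -95, -75 and -50, and a GC box was in 32.7% of all windows. NF-kB, AP-1 and interferon letters, present in 4.93%, 4.46% and 7.13% of all windows, were found in none of these 3 windows. Of the other receptor genes, Ccr2 had interferon letters at -86. Ccrl2 had NF-kB letters at -68 in its upstream window at chr9:111057519-111057768, whereas its other upstream windows held none of the motifs. The windows of Fpr1 and Fpr2 were poor in G and C, at 38.4% and 38.8% with 1 and 0 CpG, whereas that of Cxcr4 had 61.2% and 19 CpG (median of all windows, 52.4% and 6 CpG). These matches describe letters only.

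The receptor genes were ordered by FPKM, which corrects for gene length and allows genes to be compared. Ccrl2 was first at a mean of 77.3 FPKM over the 4 libraries, followed by Ccr1 at 47.7, Cxcr4 at 33.7, Cmklr1 at 6.35, Fpr1 at 6.30 and Fpr2 at 4.92 FPKM. Ccr2, Cx3cr1 and Ackr3 were at 0.395, 0.142 and 0.0383 FPKM. The ranges over the 4 libraries overlapped for every pair of neighbours in this order. The order depended on the number: Cxcr4 was first in both libraries numbered 1, at 56.1 FPKM in WT and 55.8 FPKM in KO, and Ccrl2 was first in both numbered 2, at 130 and 112 FPKM. Ccr1 was second in all 4 libraries. Fpr1 was last of the 9 in WT replicate 1, at 0.0444 FPKM, and behind Ccrl2 and Ccr1 alone in WT replicate 2, at 11.9 FPKM.

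**Figure D1:**
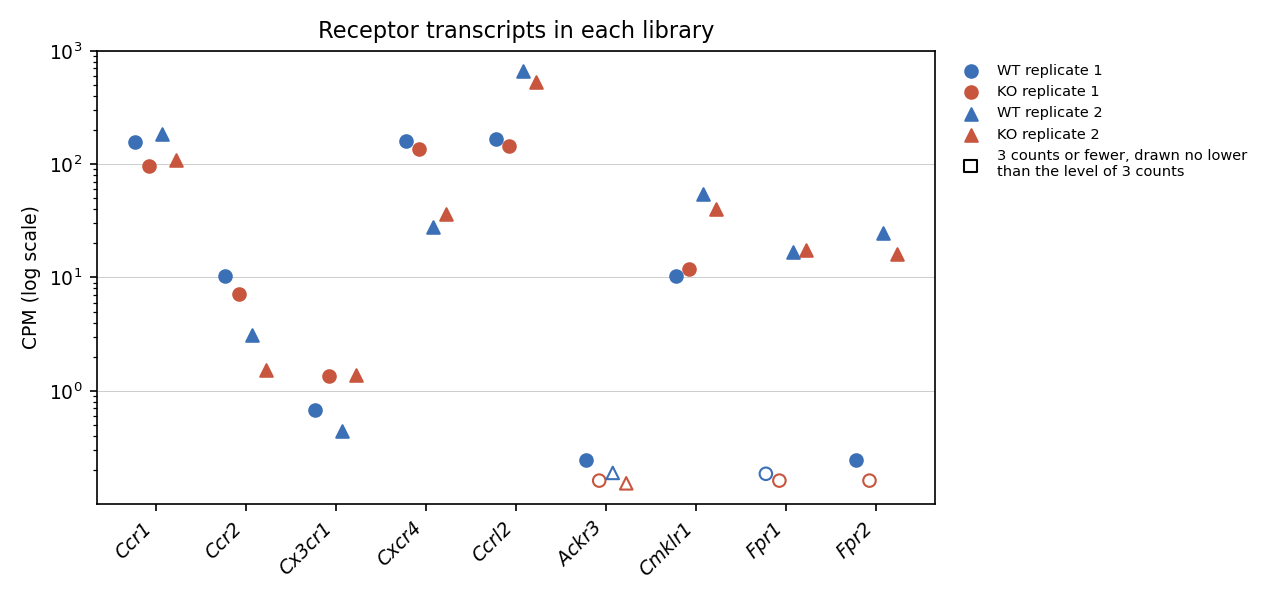
CPM of the 9 receptor genes in each library on a log axis, with WT in blue, KO in red, circles for replicate number 1 and triangles for number 2. Open symbols hold 3 counts or fewer and are drawn no lower than the level of 3 counts; for Fpr1 and Fpr2 the circles lie far below the triangles in both genotypes, and for Ccr1 the red symbols lie below the blue ones.

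Genotype was tested with the edgeR quasi-likelihood fit over all 12418 genes that passed the filter on low counts. Calls were made where the adjusted p was under 0.05 and the change exceeded 2-fold. Of the 9 receptor genes 8 passed the filter. Fpr1 and Fpr2 passed through the libraries numbered 2 alone, Cx3cr1 passed through the KO libraries, and Ackr3 did not pass. None of the 8 was called, and of all tested genes 0 were called (0%). At an unadjusted p under 0.05, 1 of the 8 was higher in KO (Cx3cr1) and 1 lower (Ccr1), against 4.64% and 1.99% of all tested genes, 6.63% in all. The edgeR exact test and the DESeq2 Wald test also called 0 of the 8, while calling 174 (1.4%) and 181 (1.46%) of all tested genes, and a fit with the replicate number as a block called 0 of the 8 and 5.35% of all. The KO and WT libraries did not overlap for the same 2 receptor genes, 25% of the 8, against 36.9% of all tested genes. The median log2 fold change of the 8 was -0.29, and 2 of them were above 0, with a median of 0.04 over all tested genes.

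Ccr1 is a receptor for inflammatory CC chemokines such as CCL3, CCL5 and CCL9. The gene (ENSMUSG00000025804) lies on chromosome 9 from 123962126 to 123968692 on the minus strand, as the deposited table gives it, and GENCODE M21 on GRCm38 starts it at 123962124. Its level was 157 and 185 CPM in WT and 97.2 and 109 CPM in KO, and every KO library was below every WT library. Mean levels were 171 ± 19.7 CPM for WT and 103 ± 8.01 CPM for KO (SD, n = 2 each). KO differed from WT by -0.73 on the log2 scale, with a 95% confidence interval from -1.32 to -0.13 and an SE of 0.23, at an unadjusted p of 0.0251 and an edgeR adjusted p of 0.592. Within the numbers the log2 ratios of KO to WT were -0.69 and -0.77, close to each other and to the pooled value. Between the numbers it varied little: number 2 was 1.18-fold number 1 in WT and 1.12-fold in KO.

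Ccr2, the receptor for CCL2 and CCL7 that marks inflammatory monocytes, lies 133.26 kb from Ccr1 on the other strand (ENSMUSG00000049103, chromosome 9, 124101950 to 124113557). Counts were 166 and 49 in WT and 134 and 30 in KO, or 10.2 and 3.08 CPM against 7.19 and 1.52 CPM. Both genotypes were high in number 1 and low in number 2, and the groups overlapped. Genotypes differed by -0.61 on the log2 scale, with an SE of 0.88 and an edgeR adjusted p of 0.965. Within the numbers KO was lower in both, at log2 ratios of -0.51 and -0.999. Number 1 stood 3.33-fold above number 2 in WT and 4.72-fold in KO. Of 12 tested monocyte markers, 2 were over 2-fold higher and 0 were over 2-fold lower in number 2 in both genotypes (4.36% and 2.42% of all tested genes). Between genotypes, 3 of the 12 were higher and 3 were lower in KO without overlap (20% and 16.9% of all tested genes). Of the 50-base windows of the Ccr2 transcripts 1.91% also occurred in other genes.

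Cx3cr1 encodes the fractalkine receptor of patrolling monocytes and tissue macrophages (ENSMUSG00000052336, chromosome 9, 119901616 to 120068283 in the deposited table, with an end at 120069879 in GENCODE M21, minus strand). Counts were near the lower limit, at 11 and 7 in WT and 25 and 27 in KO. The KO libraries, at 1.34 and 1.37 CPM, were both above the WT libraries, at 0.678 and 0.439 CPM. This was a log2 fold change of 1.27 with an SE of 0.48 and a 95% confidence interval from 0.05 to 2.49, at an unadjusted p of 0.0438 and an edgeR adjusted p of 0.716. The ratios within the numbers were 0.96 and 1.58 on the log2 scale. An antisense gene, Gm33858, overlaps an exon of Cx3cr1, and whether the counting used strand is not stated, so reads of the 2 genes may not be separated, and Gm33858 itself was not analysed here. Its ligand gene Cx3cl1 was not tested, as its counts were 0 and 5 in WT and 4 and 3 in KO.

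**Figure D2:**
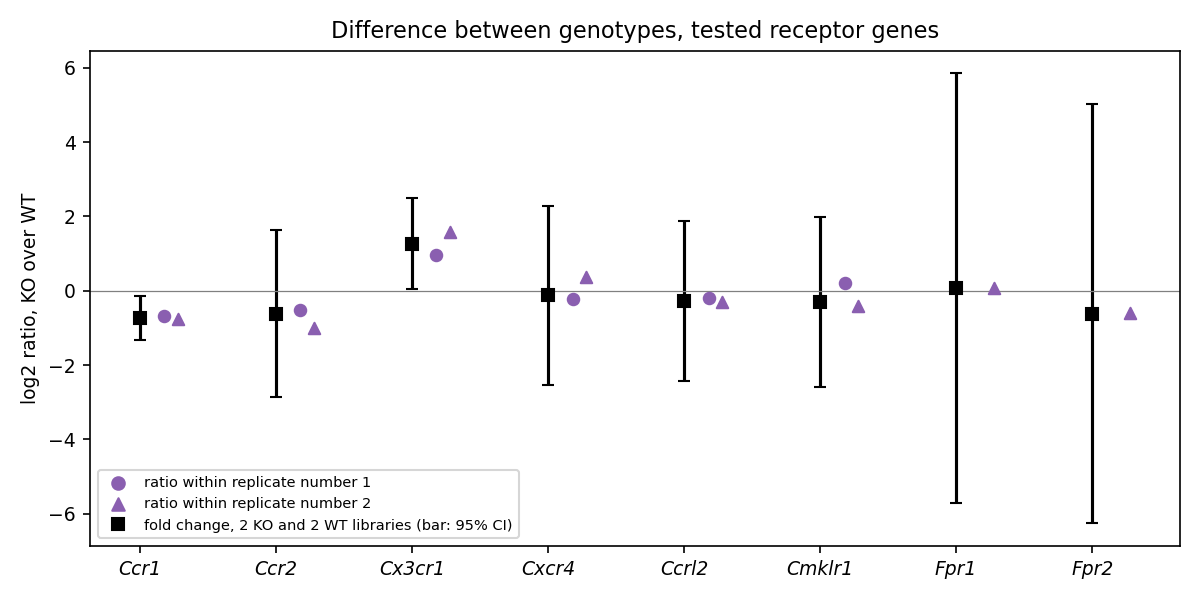
Log2 ratio of KO over WT for the 8 tested receptor genes: black squares are the fold change over 2 KO and 2 WT libraries with its 95% confidence interval, and purple circles and triangles are the single ratios within replicate number 1 and number 2. Only the intervals of Ccr1 and Cx3cr1 leave out 0, before adjustment, and the ratio within number 1 is left out for Fpr1 and Fpr2, where both libraries had 4 counts or fewer.

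Cxcr4 is the receptor for CXCL12 and a main retention signal of bone marrow cells (ENSMUSG00000045382, chromosome 1, 128588199 to 128592293, minus strand). Its level was 159 CPM in WT replicate 1 and 136 CPM in KO replicate 1, but 28.1 and 36.2 CPM in the libraries numbered 2. The 2 libraries of number 1 were both high, those of number 2 both low, and the genotypes overlapped. Between genotypes the log2 fold change was -0.12 (SE 0.95, edgeR adjusted p 0.993), with ratios of opposite sign within the numbers, -0.23 and 0.37. Number 1 was 5.67-fold number 2 in WT and 3.74-fold in KO. Taken as number 2 over number 1, the ratios were 0.176 (95% counting interval 0.159 to 0.195) and 0.267 (0.246 to 0.290). Those intervals cover counting error alone, since a genotype has 1 library for each number.

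Ackr3, the atypical receptor that takes up CXCL12 and CXCL11 without G protein signalling, was close to absent (ENSMUSG00000044337, chromosome 1, 90203980 to 90216751, plus strand). Counts were 4 and 3 in WT against 2 and 0 in KO, so no fold between the genotypes is given. Cxcr4 was thus the CXCL12 receptor gene detected in these cells at a level that could be compared.

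Ccrl2 encodes an atypical receptor that binds chemerin and presents it to CMKLR1 on neighbouring cells. The gene (ENSMUSG00000043953, chromosome 9, 111054486 to 111057519, minus strand) had 167 and 660.2 CPM in WT and 145 and 535 CPM in KO. The libraries numbered 2 were high in both genotypes, and the genotypes overlapped. Number 2 was 3.96-fold number 1 in WT (95% counting interval 3.80 to 4.13) and 3.70-fold in KO (3.54 to 3.86). The genotypes differed by a log2 fold change of -0.28, with an SE of 0.85 and an edgeR adjusted p of 0.983, and by -0.20 and -0.30 within the numbers.

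Cmklr1, the signalling chemerin receptor, followed the same order (ENSMUSG00000042190, chromosome 5, 113612354 to 113650426, minus strand). It had 10.3 and 54.2 CPM in WT and 11.9 and 40.4 CPM in KO, high in number 2 and low in number 1 in either genotype, with overlapping groups. The ratio of number 2 to number 1 was 5.26 in WT (95% counting interval 4.45 to 6.25) and 3.41 in KO (2.93 to 3.98). Between genotypes it differed by -0.30 (log2, SE 0.90, adjusted p 0.983 in edgeR), with 0.20 and -0.42 within the numbers. Rarres2, the gene of their ligand chemerin, was low at 1.29 and 0.251 CPM in WT and 0.644 and 0.559 CPM in KO, and its groups overlapped.

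The formyl peptide receptor genes are neighbours on chromosome 17, 3.88 kb apart and on opposite strands. Fpr1 (ENSMUSG00000045551, 17876471 to 17883940, minus strand) binds N-formyl peptides with high affinity. It had 1 count in WT replicate 1 and 0 in KO replicate 1, but 267 in WT replicate 2 and 346 in KO replicate 2, or 16.8 and 17.6 CPM. The libraries of number 1 were at or below the level of 3 counts and those of number 2 were not, in both genotypes. In WT the ratio of number 2 to number 1 was 272 (95% counting interval 48.4 to 10800), and in KO number 2 was at least 109-fold higher, against 3 counts in that library. The genotype fit gave a log2 fold change of 0.07 with an SE of 2.28 (edgeR adjusted p 0.996), and KO over WT within number 2 was also 0.07 on that scale.

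Fpr2 (ENSMUSG00000052270, 17887824 to 17893952, plus strand) encodes the more promiscuous receptor, which also binds annexin A1, serum amyloid A and cathelicidin. It had 4 counts in WT replicate 1, 0 in KO replicate 1, 393 in WT replicate 2 and 320 in KO replicate 2. As with Fpr1, the libraries numbered 2 were the high ones and the genotypes overlapped. The ratio of number 2 to number 1 had a 95% counting interval of 38.7 to 369 in WT, and number 2 was at least 101-fold higher in KO, against 3 counts. The log2 fold change between genotypes was -0.61 (SE 2.22, edgeR adjusted p 0.989), and within number 2 it was -0.60. The coding sequences of Fpr1 and Fpr2 were 71.1% identical over 1035 aligned bases, the highest of any pair of the 9. Of the 50-base windows of Fpr1 0.0784% also occurred in another gene, against 31.5% for Fpr2, which shares them with Gm5966, Fpr3 and Fpr1. Fpr3, which overlaps an exon of Fpr2, had 0 counts in every library. The count of Fpr2 is therefore less certain than that of Fpr1.

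Number 2 differed from number 1 by over 2-fold in the same direction in both genotypes for 6 of the 8 tested receptor genes (75%), against 6.78% of all tested genes. The 4 that were higher in number 2 were Ccrl2, Cmklr1, Fpr1 and Fpr2 (4.36% of all tested genes), and the 2 that were lower were Ccr2 and Cxcr4 (2.42%). Fpr1 and Fpr2 could pass the filter only by such a difference, so this count is a description. The genotype ratios within a number were smaller than the differences between numbers for each of these 6 genes, where they are given above. Neutrophil markers summed to 94.3 and 86.5 CPM in number 1 and 159 and 112 CPM in number 2 (WT and KO). Of its 9 tested members, 2 were over 2-fold higher in number 2 in both genotypes (Lcn2 and Mmp9), 1 was lower (Cxcr2), and the median log2 ratio of number 2 to number 1 was 0.06 in either genotype. Lcn2 and Mmp9 had 0.555 and 3.14 CPM in WT replicate 1 and 15.5 and 28.6 CPM in WT replicate 2, while Ly6g had at most 0.0617 CPM and Mpo and Elane were at 0 in all libraries. Among macrophage markers Cd14 moved in the same direction, at 125 and 106 CPM in number 1 and 683 and 533 CPM in number 2, whereas Fcgr1 moved in the other, at 55.7 and 46.6 against 21.2 and 17.7 CPM. In bulk RNA, fewer cells of a type and less RNA per cell cannot be told apart.

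**Figure D3:**
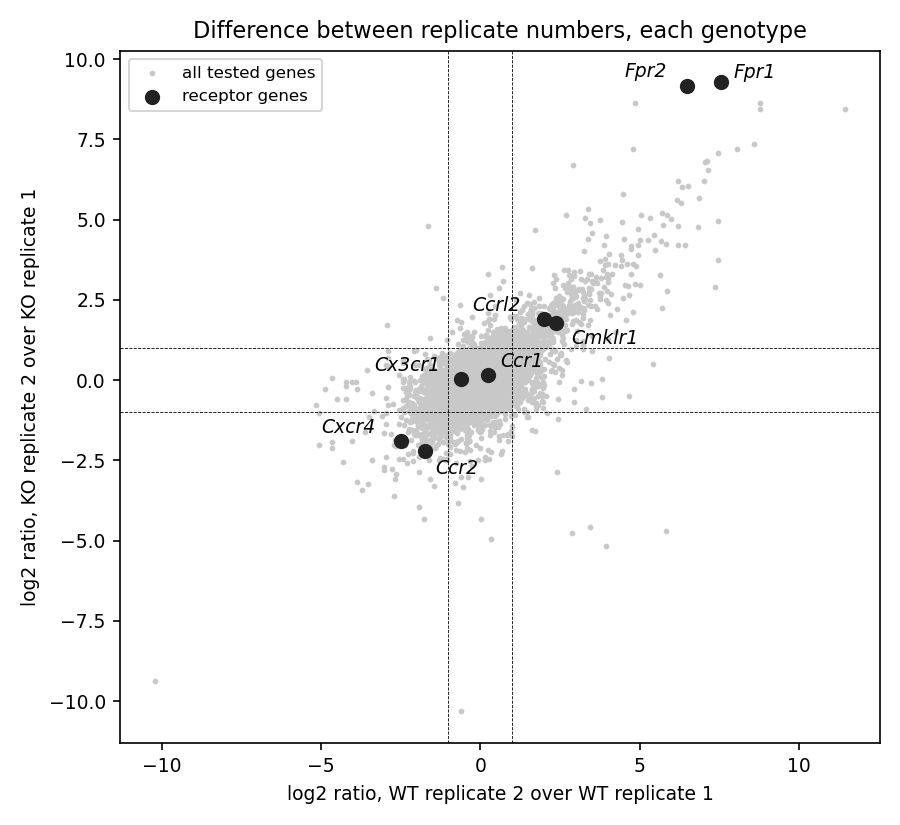
Log2 ratio of replicate number 2 over number 1 in WT (horizontal) and in KO (vertical) for all 12418 tested genes in grey and the 8 tested receptor genes in black, with 0.5 counts added to each library-scaled count and dashed lines at 2-fold. Fpr1 and Fpr2 lie at the upper right, Ccrl2 and Cmklr1 beyond both 2-fold lines above, Cxcr4 and Ccr2 beyond both below, and Ccr1 and Cx3cr1 between the lines.

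For the 3 receptor genes whose log2 CPM varied most over the libraries, the genes with the most similar profile were sought by Euclidean distance between centred log2 CPM over the 4 libraries, among 9419 tested genes with a mean of at least 5 CPM. Nearest to Fpr1 was Il12b, the gene of an interleukin subunit, at a distance of 0.121, with counts of 1 and 241 in WT against 0 and 336 in KO. Irg1, whose product makes itaconate, and the neutrophil chemokine gene Cxcl2 followed at 1.00 and 1.07. Fpr2 was nearest to Ugt1a1, a glucuronosyltransferase gene, at 1.22, and Il12b and Fpr1 came next at 1.36 each. With 4 libraries, these distances rest on which number was high and by how much. Cxcr4 was nearest to Abcd2, a peroxisomal fatty acid transporter gene, at 0.226, with counts of 593 and 114 in WT against 724 and 186 in KO, followed by 1810011H11Rik at 0.281 and Rgs2, a regulator of G protein signalling, at 0.352.

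Of 33 other receptor genes of these families, 32 were in the table, 23 had a count and 13 were tested. Not one was called by the quasi-likelihood test, 0 were higher and 1 was lower in KO at an unadjusted p under 0.05 (4.64% and 1.99% of all tested genes), and the median log2 fold change was -0.27. The one that was lower was Ccr3, the eotaxin receptor of eosinophils, basophils and mast cells, which lies 53.28 kb from Ccr1. Counts of 29 and 35 in WT stood against 6 and 9 in KO, all KO values below all WT values, and the gene passed the filter through the WT libraries alone. The log2 fold change was -2.33 (SE 0.47, edgeR quasi-likelihood adjusted p 0.289), and the ratios within the numbers were -2.37 and -2.20. The edgeR exact test called it, at an adjusted p of 0.0456, and the DESeq2 Wald test did not, at 0.130. Markers of mast cells and basophils moved with Ccr3, with a summed level of 100.2 to 114.7 CPM in WT and 42.4 to 51.4 CPM in KO, all 5 tested members lower in both KO libraries (16.9% of all tested genes) and Mcpt8 among the listed genes at 0. The eosinophil list, which holds Ccr3 itself, summed to at least 14.7 CPM in both WT libraries and to 9.77 and 9.96 CPM in KO, with its 3 tested members lower and the other defining genes Prg2 and Epx at 0. Their part in the Ccr3 result was not tested.

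The remaining receptor genes spanned levels from below 1 CPM to 932 CPM. C3ar1 and Ptafr, receptors for the complement fragment C3a and for platelet-activating factor, were the most abundant, with 577 to 932 and 440 to 920 CPM over the libraries, and both had overlapping groups. Ccr7, which directs cells to lymph nodes, had 2.59 and 4.90 CPM in WT and 1.88 and 2.24 CPM in KO (adjusted p 0.848 in the same edgeR test). Every KO library of Ccr7 lay below every WT library, as for 16.9% of all tested genes. C5ar1, the receptor for C5a, had 68.2 and 113 CPM in WT and 89.1 CPM in KO replicate 2, but 10.4 CPM in KO replicate 1, which stood apart from the other 3 libraries. By number, over 2-fold in both genotypes, 1 of the 13 was higher in number 2 (Ccr9) and 4 were lower (C5ar2, Cxcr2, Cxcr3 and Gpr183), against the same 4.36% and 2.42%. Cxcr2 and Cxcr3 passed the filter through the libraries numbered 1 alone, so this count is a description as well. Cxcr2, a neutrophil receptor, had 29 and 25 counts in number 1 and 1 and 4 counts in number 2 (WT and KO), a ratio of number 2 to number 1 of 0.0351 (95% counting interval 0.000859 to 0.212) in WT and 0.151 (0.0383 to 0.439) in KO. Cxcr2 and Cxcr4 were thus low in the libraries in which the formyl peptide receptor genes were high.

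Of 21 ligand genes of the 9 receptors, 15 were tested. Again 0 were called by the quasi-likelihood test, 1 was higher (Cxcl12) and 2 were lower (Ccl6 and Ccl8) at an unadjusted p under 0.05, the exact test called 2 and the DESeq2 Wald test 3, and the median log2 fold change was -0.60. Over all tested genes the shares were 4.64% and 1.99% at the unadjusted p, and 1.4% and 1.46% by these other tests. Without overlap between the groups, 1 ligand gene was higher in KO and 5 were lower (Ccl6, Ccl8, Mif, Anxa1 and Saa3), against 20% and 16.9% of all tested genes.

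Cxcl12, the ligand of CXCR4 and ACKR3, had 1.48 and 1.00 CPM in WT and 8.10 and 7.67 CPM in KO. Both KO libraries were above both WT libraries. The change was 2.66 on the log2 scale (SE 0.36, edgeR quasi-likelihood adjusted p 0.216), with 2.43 and 2.90 within the numbers. It was called by the edgeR exact test (adjusted p 0.00115) and by the DESeq2 Wald test (adjusted p 4.69e-05). Stromal markers, a list that contains Cxcl12, moved with it, with a summed level of 89.0 to 104 CPM in WT and 360.1 to 391.7 CPM in KO, 11 of 13 tested members higher in both KO libraries (20% of all tested genes), and Dcn and Pdgfra at 40.6 to 41.8 and 14.1 to 20.1 CPM in WT. The part of those markers in the Cxcl12 result was not tested. Of its receptor genes, Cxcr4 overlapped between genotypes and Ackr3 had at most 4 counts in a library.

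Ccl6, a mouse ligand of CCR1, had 1075 and 1267 CPM in WT and 431 and 572 CPM in KO, with every KO library below every WT library (log2 fold change -1.22, SE 0.25). Its adjusted p was 0.289 in the edgeR quasi-likelihood test, 0.421 in the exact test and 0.00580 in the DESeq2 Wald test. Ccl8, another ligand of CC receptors, had 10.1 and 5.90 CPM in WT and 1.82 and 1.42 CPM in KO (log2 fold change -2.30, SE 0.41). For this gene the adjusted p was 0.262 in the edgeR quasi-likelihood test, 0.0124 in the exact test and 0.00183 in the DESeq2 Wald test. Anxa1, the gene of the FPR2 ligand annexin A1, had 3577 and 2640 CPM in WT and 2323 and 2372 CPM in KO (log2 fold change -0.41, SE 0.22, edgeR adjusted p 0.868). Per length, the serum amyloid A gene Saa3 was above Anxa1, at a mean of 816 against 721 FPKM, though not in KO replicate 1. Mif, the gene of a cytokine that also binds CXCR4, had 131 and 105 CPM in WT and 73.4 and 82.0 CPM in KO, a log2 difference of -0.61 (SE 0.24, adjusted p 0.758 in edgeR).

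Between the numbers, 6 of the 15 ligand genes (Ccl2, Ccl3, Ccl4, Ccl5, Ccl7 and Ccl9) were over 2-fold higher in number 2 in both genotypes and 0 were lower, against 4.36% and 2.42% of all tested genes. These encode inflammatory CC ligands, those of CCR1 and CCR2 among them. Ccl9 had 203 and 65.2 CPM in number 1 and 3157 and 1452 CPM in number 2 (WT and KO), a ratio of 15.5 in WT and 22.3 in KO. KO was below WT within both numbers, at log2 ratios of -1.64 and -1.12 for Ccl9 and of -0.93 and -1.88 for Ccl4. Ccl3 had 30.2 and 20.9 CPM in number 1 and 463 and 193 CPM in number 2. Ccl2 had 24.6 and 18.4 CPM in number 1 and 198 and 92.7 CPM in number 2, the opposite order to that of its receptor gene Ccr2. Of the ligand genes of CCR1, Ccl3, Ccl5, Ccl7 and Ccl9 were 4.18-fold to 30.6-fold higher in number 2, whereas Ccl6 was 1.18-fold higher in WT and 1.33-fold in KO. Camp, the cathelicidin gene, had 8 and 5 counts in number 2 and 0 in number 1.

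**Figure D4:**
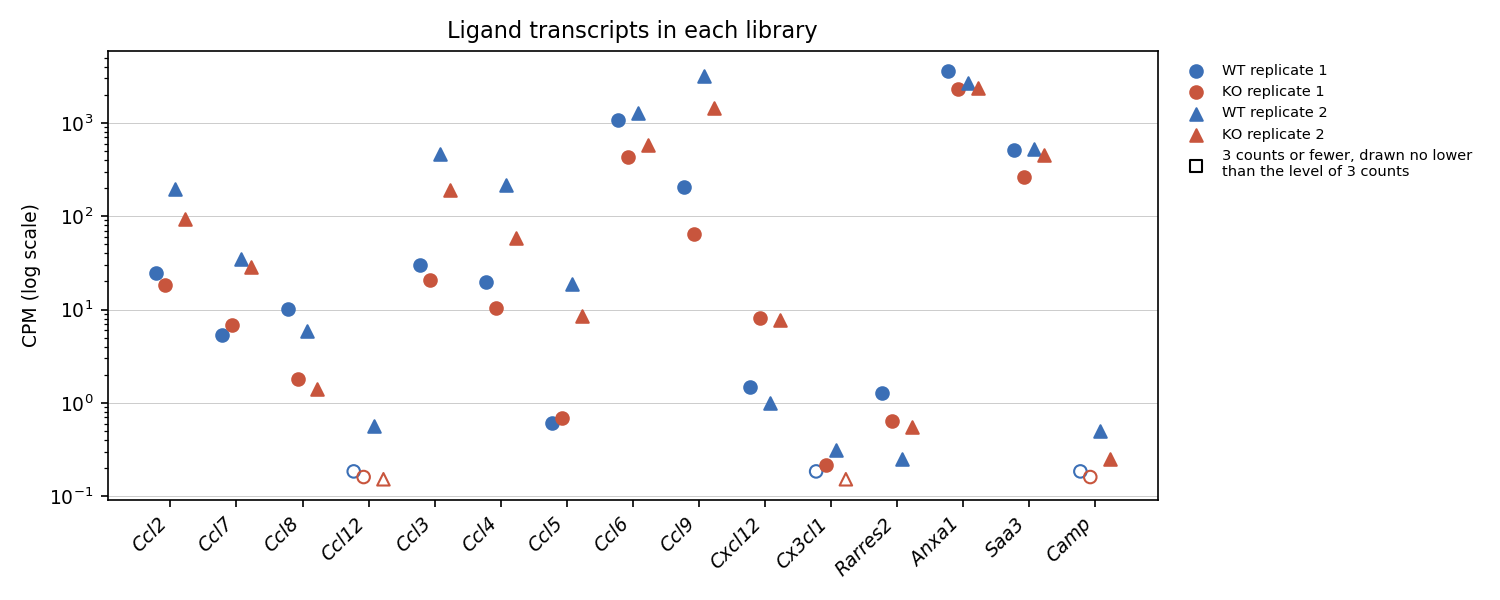
CPM of 15 of the ligand genes, tested or not, in each library on a log axis, with WT in blue, KO in red, circles for replicate number 1 and triangles for number 2, and open symbols for 3 counts or fewer, drawn no lower than the level of 3 counts. Triangles of Ccl2, Ccl3, Ccl4, Ccl5, Ccl7 and Ccl9 lie above the circles in both genotypes, and red symbols lie above blue ones for Cxcl12 and below them for Ccl6 and Ccl8.

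Downstream of the receptors, 39 of 40 listed genes for G proteins, arrestins, receptor kinases, regulators of G protein signalling and their effectors were tested. They had a median log2 fold change of -0.04, 0 were called by the quasi-likelihood test, the exact test or the DESeq2 Wald test, and 0 were higher and 1 was lower at an unadjusted p under 0.05, against 4.64% and 1.99% of all tested genes. This was Rgs1, whose product shortens chemokine receptor signals, with 176 and 135 CPM in WT and 86.3 and 105 CPM in KO, all KO values below all WT values. The log2 fold change of Rgs1 was -0.70 (SE 0.26, edgeR adjusted p 0.709), and 3 of the 39 genes were higher and 6 lower in KO without overlap (23.1% in all, against 36.9% of all tested genes). Between the numbers 5 of the 39 (12.8%) differed by over 2-fold in both genotypes, 3 higher and 2 lower, against 6.78% of all tested genes.

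**Figure D5:**
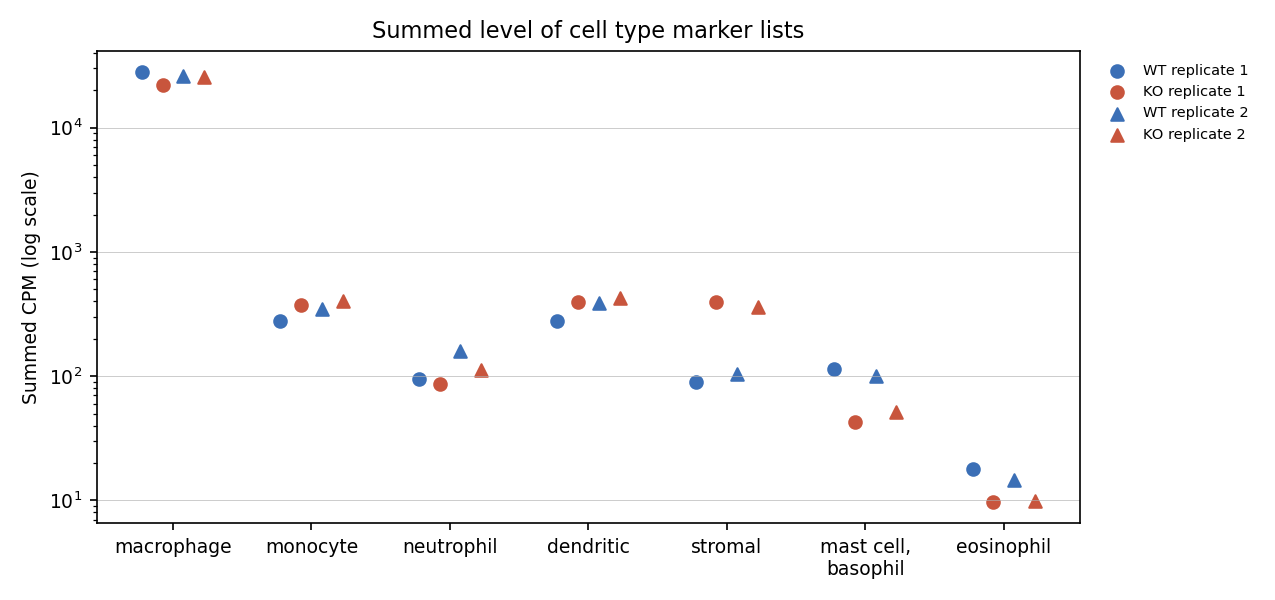
Summed CPM of cell type marker lists in each library on a log axis, with WT in blue, KO in red, circles for replicate number 1 and triangles for number 2. Macrophage markers, mostly Lyz2, lie between 22117 and 27932 CPM in all libraries, stromal markers are higher in both KO libraries, and mast cell, basophil and eosinophil markers are lower in both.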

How the data were processed

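RNA sequencing covered 4 libraries of mouse macrophages, WT and KO replicates 1 and 2. The authors used Seqtk to filter reads, HISAT2 2.0.4 to align them and StringTie 1.3.3b to count fragments of each gene. They deposited raw counts and FPKM for 34745 genes. Deposited FPKM values carry the library total and no TMM factor: dividing counts by them gave gene lengths that varied over the libraries by no more than 0.00398%. The submitters' processing notes name mm39, but of 34267 gene identifiers found in GENCODE M21, 27699 had identical GRCm38 coordinates, and that build is used for positions; the coordinates of Ccr1 and Cx3cr1 were not identical. Whether counting used strand is not stated.

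The quasi-likelihood test of edgeR 4.0.16 (R 4.3.3; glmQLFit, glmQLFTest, two-sided) was fitted to the counts with genotype as its single term and TMM scaling. filterByExpr, set to a count of 10 and a total of 15, kept 12418 of 17991 genes with a count, and p-values were adjusted over them by Benjamini-Hochberg. Log2 ratios within a number had 0.5 counts added. Alternatives were DESeq2 1.42.0 (size factors and the Wald test), other filters, the edgeR exact test, limma 3.58.1 on log2(FPKM + 1) (minimum 0.1 FPKM in 2 libraries), the replicate number as a block, a gene length correction (loess span 0.5), no minimum fold change, and each library left out. The code was tested on simulated data. Upstream sequences came from RefSeq (GRCm38.p6), with all 9 receptor genes matched by symbol. Genes named are the 9 receptors, tested genes of the other receptor and ligand lists, signalling genes at an unadjusted p under 0.05 without overlap (at most 5 in each direction), the 3 nearest profiles of the 3 most variable receptors, and G3bp1. Camp, Cx3cl1, Fpr3 and single cell type markers were chosen after their values were seen and are given as values. A gene of the other receptor list is not reported here. The members and lists were chosen with earlier results of these data known.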

Additional observations from a re-analysis of the deposited data

How the results depend on the processing

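No receptor gene was called in any setting, of 8 tested in most, 9 without a filter and 7 at a mean CPM of at least 1, where Cx3cr1 was not tested. Of all tested genes, 0 were called by the quasi-likelihood test, 181 by the DESeq2 Wald test, 174 by the edgeR exact test, 664 with the replicate number as a block and 359 with the replicate block and the gene length correction, and 0 in the other settings. No label ties the number to a batch, and with 2 numbers the pairing could not be settled from the data. Deviations of same-numbered libraries correlated at 0.691, and the block lowered the common biological coefficient of variation from 0.343 to 0.169. Under the block Ccr1 had an edgeR adjusted p of 0.0238 at a log2 fold change of -0.73, below the minimum fold, and Cx3cr1 and Ccr2 had adjusted p of 0.135 and 0.153. Of the 13 other receptor genes tested the block called 2, Ccr3 (log2 fold change -2.34) and C5ar1 (-1.48). Of the 15 ligand genes tested it called 5 (Cxcl12, Ccl4, Ccl6, Ccl8 and Ccl9), against 5.35% of all tested genes. All of these but Cxcl12 were lower in KO, while of the 664 genes called 494 were higher and 170 lower. The log2 ratios of C5ar1 within the numbers were -2.71 and -0.34, so its call rests mainly on KO replicate 1. Ccr1 and Cx3cr1 kept their sign in every setting that tested them, from -0.84 to -0.64 and from 0.96 to 1.62 with each library left out.

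The sign of Cxcr4 turned positive with limma (0.20), with the block (0.061) and with the replicate block and length correction (0.084). With each library left out, where the lone library of a genotype is assumed to vary like the others, the log2 fold change ran from -1.37 to 1.62 for Cxcr4, from -2.12 to 0.51 for Ccr2, from -1.51 to 0.99 for Ccrl2, from -1.44 to 1.31 for Cmklr1, from -10.15 to 6.97 for Fpr1 and from -10.72 to 4.97 for Fpr2. Leaving out WT replicate 1 or KO replicate 2 turned Cxcr4, Ccr2 and Fpr1, and leaving out WT replicate 2 or KO replicate 1 turned Ccrl2, Cmklr1 and Fpr2. With a library left out, the genotypes are no longer balanced over the numbers. Ackr3 and Cx3cr1, with at most 27 counts in a library, are limited by depth, and limma on log2(FPKM + 1) understates changes of such low genes.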
